A study of Homo sapiens with 17 samples.

Results

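The genes described here are those that were already lower 2 h after toyocamycin in YB5 colon cancer cells and were also lower at 24, 48 and 72 h. They were chosen by their values in this experiment: CPM was the count of a gene divided by the total of its library and multiplied by 1000000, and L was the log2 ratio of the mean of toyocamycin plus 1 to the mean of DMSO plus 1 at a time label. A gene entered with a DMSO mean of at least 10 CPM at 2 h, with L at most -0.8 at 2 h and with L at most -1 at 24, 48 and 72 h, and symbols made of ZNF and digits were left out. The rule kept 123 of 19141 counted genes. Of 9119 genes with at least 10 CPM in DMSO at 2 h, called expressed genes below, 651 passed the 2 h limit and 129 of these passed the later limits, 6 of which had a ZNF symbol. Since the levels at 2, 24, 48 and 72 h selected the genes, they are given as a description without a test. The libraries of 10 h played no part in the choice, and only these were tested.

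YB5 is derived from the SW48 colon cancer line and carries a methylated, silent GFP reporter at a single insertion, so all samples come from 1 engineered line. Toyocamycin is an adenosine analog, given at 250 nM, and DMSO is its vehicle. PolyA RNA was sequenced in 17 libraries: 2 of each treatment at 2 h, 1 DMSO and 2 toyocamycin libraries at 10 h, 1 of each at 24 h and at 48 h, and 3 of each at 72 h. The labels' 72 h is used for the last time point, for which the study's text gives a later hour. In the labels, batch 2 holds replicate 2 of both treatments at 2 h and at 10 h (4 libraries), and batch 1 holds the other 13. Counts per library ranged from 8735465 to 22121364. Replicate 2 of toyocamycin at 10 h was the shallowest and stood apart, with a Pearson correlation of 0.916 with replicate 1 across genes. The number of members called at 10 h and their median are therefore given with and without this library. Fold changes of single genes come from the fit that includes it, unless stated otherwise. Mitochondrially encoded genes held 6.55% of the counts of replicate 2, against 3.30% in replicate 1 and 2.82% in the DMSO library of 10 h. At 24 and 48 h their share was 3.49% and 3.29% on toyocamycin and 1.46% and 1.40% in DMSO, and its part in the results was not tested. Of 15 colon epithelial markers, 7 reached 10 CPM in DMSO at 2 h (CDH1, CDX2, EPCAM, KRT18, KRT19, KRT8 and LGR5), and their list summed to 2281 to 7544 CPM in DMSO and 414 to 4538 CPM in toyocamycin. No fibroblast, endothelial or blood marker (0 of 6, 0 of 4 and 0 of 6) reached that level, and the blood list summed to at most 1.08 CPM in DMSO and 49.7 CPM in toyocamycin. In bulk RNA, fewer cells of a kind and less RNA per cell cannot be told apart.

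The level of an mRNA is set by its synthesis and its decay, and mRNAs of cell cycle regulators, transcription factors and signalling proteins are known for fast turnover. Cell cycle genes of the kind found here are switched on as cells enter S phase, largely through E2F factors, while the CCAAT box and the cyclic AMP response element are common elements of their promoters. XBP1 is the transcription factor that the stress sensor IRE1 activates by splicing, and MEPCE caps the 7SK RNA, whose particle holds the elongation kinase P-TEFb inactive. EPHB3 is a receptor tyrosine kinase that positions cells in the intestinal crypt.

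Promoter sequences from RefSeq (GRCh38.p14; from 250 bases before to 50 bases after a gene's start) were matched by symbol for 105 members and 7546 expressed genes. The 250 bases before the start are printed for 4 members that recur below, the replication and cell cycle genes CDC25A, CCNA2 and MCM10 and the member with the lowest L at 2 h, EPHB3. The sequences are in 5′ to 3′ order on the strand of the gene, and capitals mark CCAAT, TGACGTCA and TTTGGCGC on either strand, so that ATTGG is a CCAAT of the other strand. The intervals are chr3:48188418-48188667 (minus strand) for CDC25A, chr4:121823884-121824133 (minus strand) for CCNA2, chr10:13161308-13161557 (plus strand) for MCM10 and chr3:184561535-184561784 (plus strand) for EPHB3.
CDC25A: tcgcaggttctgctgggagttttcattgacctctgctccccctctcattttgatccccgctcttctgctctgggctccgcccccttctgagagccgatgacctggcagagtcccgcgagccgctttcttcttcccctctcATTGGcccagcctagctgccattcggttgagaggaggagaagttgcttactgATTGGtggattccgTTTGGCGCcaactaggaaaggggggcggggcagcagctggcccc
CCNA2: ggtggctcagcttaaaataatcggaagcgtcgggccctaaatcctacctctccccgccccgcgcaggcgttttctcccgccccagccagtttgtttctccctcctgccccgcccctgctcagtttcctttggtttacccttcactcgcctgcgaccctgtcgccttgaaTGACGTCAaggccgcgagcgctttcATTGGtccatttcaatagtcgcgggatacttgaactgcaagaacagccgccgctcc
MCM10: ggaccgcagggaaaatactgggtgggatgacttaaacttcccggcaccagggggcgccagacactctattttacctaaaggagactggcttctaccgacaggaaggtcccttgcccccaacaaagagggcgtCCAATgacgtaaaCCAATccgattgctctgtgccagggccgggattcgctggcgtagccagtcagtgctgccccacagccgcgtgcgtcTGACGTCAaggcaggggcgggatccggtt
EPHB3: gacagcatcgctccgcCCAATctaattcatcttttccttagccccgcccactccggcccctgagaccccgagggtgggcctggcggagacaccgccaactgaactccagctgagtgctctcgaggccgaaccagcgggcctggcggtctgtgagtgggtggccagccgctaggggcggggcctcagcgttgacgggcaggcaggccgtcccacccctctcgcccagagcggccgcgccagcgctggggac
In CDC25A the E2F-type letters TTTGGCGC began 44 bases before the start, after reverse CCAAT boxes that began 110 and 58 bases before it. CCNA2 held TGACGTCA 81 bases and a reverse CCAAT box 56 bases before the start. MCM10 held TGACGTCA 29 bases before the start, and CCAAT at 118 and 105 bases. In EPHB3, CCAAT lay at 234 bases, near the far end of the window, and neither other motif was found.

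Over the whole window and both strands, CCAAT stood in 50.5% of member promoters, 36.8% of those of expressed genes and 35.7% of all 27305 promoters. The GC box GGGCGG stood in 80%, 74.3% and 44.6%, respectively. TATAAA was found in 1.9% of member promoters against 4.56% of expressed and 12% of all promoters. The E-box CACGTG was in 2.86%, 10.8% and 7.43%, and the ETS motif CCGGAAGT in 3.81%, 9.90% and 4.44%. TGACGTCA occurred in 4 members (MCM10, MASTL, CCNA2 and SEMA4C), a share of 3.81% that was close to the 3.70% of expressed genes. E2F-type letters were looked for after the values had been seen, and TTTGGCGC was in 1.9% of member promoters and 1.18% of expressed ones, and TTTCCCGC in 4.76% and 2.99%. Median GC content was 67.3% in members and 66.3% in expressed genes. These are matches of letters and were not tested. All 123 members are protein coding. Their median gene span was 52070 bp with 13 exons in the canonical transcript, against 34239 bp and 10 exons for expressed genes and 33120 bp and 7 exons for 452 other genes without ZNF symbols that passed the 2 h limit but not every later one.

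Across the members, the median L at 2, 10, 24, 48 and 72 h was -1.02, -1.95, -2.01, -2.03 and -2.21. The expressed genes had medians of -0.02, -0.71, -1.20, -1.13 and -1.25, so that on this scale the typical expressed gene was itself below the later limit. L at 24, 48 and 72 h was at most -1 in 54.9%, 53% and 55.3% of expressed genes, and 40.2% passed at all 3 of these times. Of the 651 genes that passed the 2 h limit, 19.8% passed the later limits. Among the 452 that did not, without ZNF symbols, L was above 0 at 72 h in 296, and their median L was 0.56. In DMSO the members were level as a set, with a median log2 difference from 2 h between -0.14 and 0.09 at the later times, where the expressed genes lay between -0.13 and 0.05. Single members moved: the DMSO mean of GRHL3 went from 44.2 CPM at 2 h to 255 CPM at 72 h, and that of SESN3 from 17.1 to 3.26 CPM. On toyocamycin, the mean of GRHL3 went from 24.6 to 94.2 CPM, above its DMSO mean of 2 h, so L is a difference from the DMSO of the same time.

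**Figure D1:**
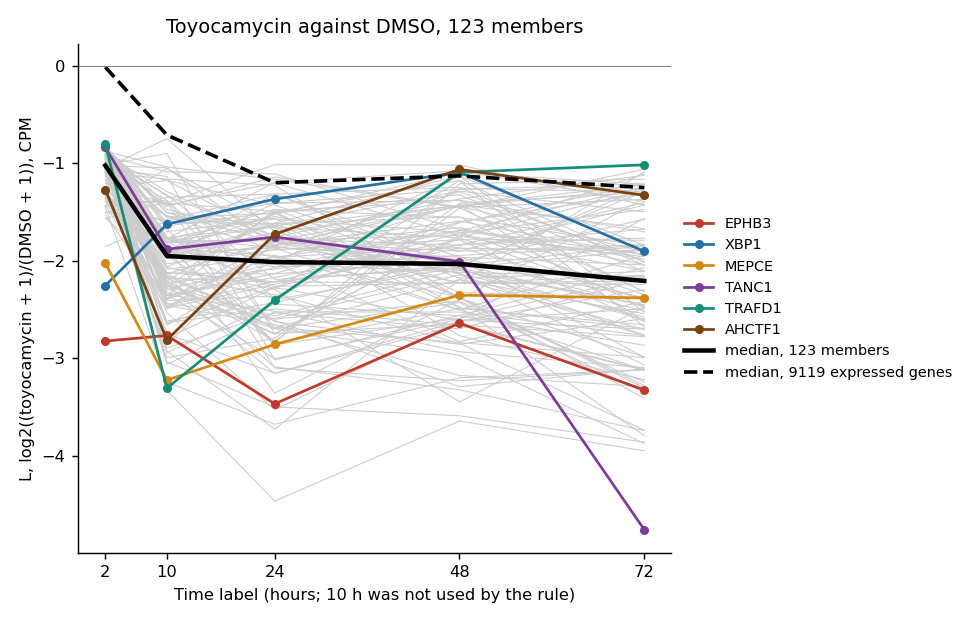
L (log2 ratio of toyocamycin to DMSO, with 1 CPM added) against the time label in hours, with 1 grey line per member, coloured lines for 6 members, and black lines for the medians of members (solid) and of expressed genes (dashed). The solid line goes from -1.02 at 2 h to -2.21 at 72 h and lies below the dashed line throughout, which the rule favours at every time but 10 h.

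Few members had their lowest value early. Among the 4 times of the rule, L was lowest in 64 members for 72 h, in 42 for 24 h, in 15 for 48 h and in 2 for 2 h, and it was below -2 at 72 h in 75 members and below -3 in 23. The median of expressed genes was also lower at 24, 48 and 72 h (-1.20, -1.13 and -1.25) than at 2 h (-0.02). The rule's later limit is also the stricter one, so these counts do not show a fall particular to the members. Taken alone, the 2 h libraries of batch 1 gave a median of -1.04, with 104 members at or below -0.8, and those of batch 2 gave -1.06, with 109, values that the rule largely fixes since it used the mean of both. Just inside the 2 h limit lay TRAFD1 (-0.807), SASH1 (-0.809) and BLM (-0.815), and just outside it RAPGEF2 (-0.799), TNRC6C (-0.795) and NAV2 (-0.794). The membership depended on the scale. With libraries scaled by TMM, 37 of the 123 met the rule, among them EPHB3, MEPCE, CDC6, CCNF, TNFSF9 and DNAJB1, and 247 genes, 120 of them members, met it when libraries were scaled on the mitochondrially encoded genes. Under TMM the median L of the members was -0.96, -1.52, -1.09, -1.49 and -1.73 at the 5 times, and that of expressed genes was 0.04, -0.26, -0.23, -0.58 and -0.72. All 123 members were below 0 at each time on that scale, as were 44.4%, 59.2%, 55.9%, 62.5% and 63.9% of expressed genes.

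At 10 h, 118 of the 123 members were called lower on toyocamycin and 0 higher by edgeR's quasi-likelihood test (Benjamini-Hochberg adjusted p under 0.1 over 16521 genes). The same test called 39.5% of expressed genes lower and 21.6% higher, and of all genes tested 24.4% lower and 20.4% higher. The share of members called lower was 95.9%, and that of the 452 other genes of the 2 h limit was 44.9%, with 13.3% higher. Fitted log2 fold changes of the members ran from -4.21 to -0.36 with a median of -1.65 (the lowest, of EFNA4, rests on 12 and 1 counts and depends on edgeR's prior count), against -0.27 in expressed genes, 0.42 in all genes tested and -0.49 in the 452. Both toyocamycin libraries of 10 h were below the DMSO library, in CPM, in 123 members and in 68.3% of expressed genes. The 5 members that were not called were SERTAD3 (log2 fold change -0.86, adjusted p = 0.130), PGF (-0.76, 0.138), N4BP3 (-0.73, 0.128), DENND1B (-0.67, 0.139) and RELT (-0.36, 0.506).

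**Figure D2:**
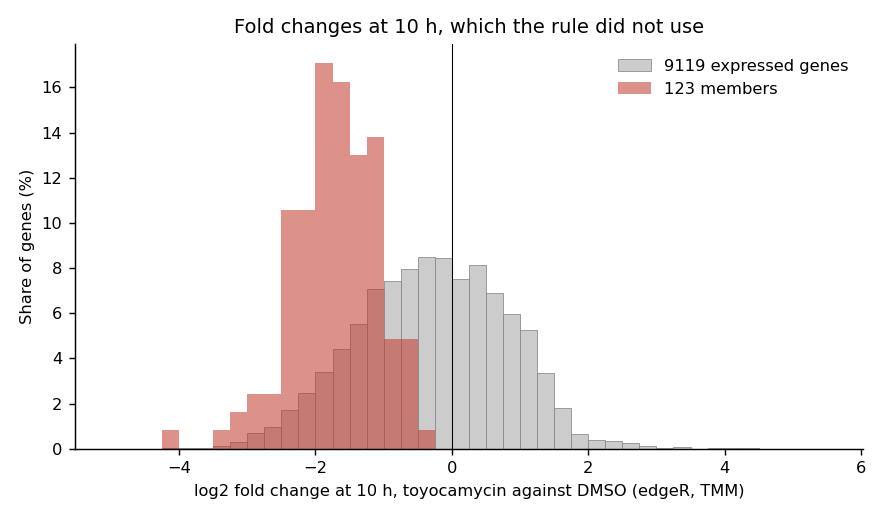
Share of genes (%) by log2 fold change of toyocamycin against DMSO at 10 h, from the edgeR fit with TMM, for the 9119 expressed genes (grey) and the 123 members (red) in bins of 0.25. The members lie between -4.21 and -0.36, all below 0, and the expressed genes lie on both sides of it.

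The 10 h groups held 1 DMSO and 2 toyocamycin libraries. All 17 libraries entered the fit, but a group of 1 library adds nothing to the spread. The spread thus came from the replicated groups, including those that chose the members, and that of DMSO at 10 h was not measured. Within batch 2, which leaves out replicate 1 of toyocamycin, 120 members were called lower with a median of -1.85, and without replicate 2, the library that stood apart, 114 were called with a median of -1.61, although treatment and batch then coincide. The DESeq2 Wald test called 114 lower and 0 higher. In L, the median of the members was -2.08 in replicate 1 and -1.96 in replicate 2, where expressed genes had -0.77 and -0.70, and 53 members were lower in replicate 2 than in replicate 1. Other scalings left 0 members called higher but moved the split among expressed genes from 3603 lower and 1972 higher to 3038 and 2602 with DESeq2's size factors, 5036 and 965 with library size alone, and 4527 and 45 with mitochondrial scaling. The members called lower in these were 113, 122 and 123. Across the 123 members, the Spearman correlation of L between 2 and 10 h was 0.0044, between 10 and 24 h it was 0.52, and from 72 h it was 0.085 to 10 h and 0.087 to 2 h. These are descriptions across genes whose range the rule limits and which share libraries, and no p is given.

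**Figure D3:**
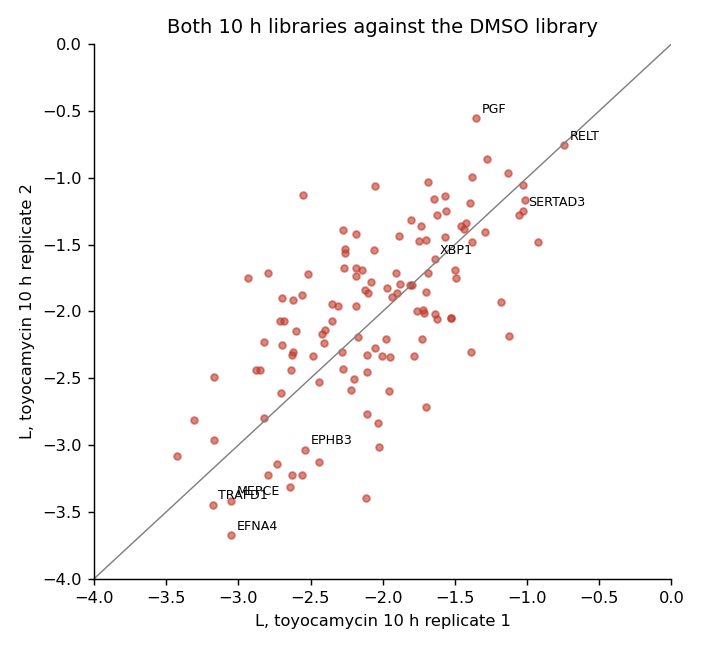
L of each member (1 point each) in replicate 1 (x axis) and replicate 2 (y axis) of toyocamycin at 10 h, both against the same DMSO library, with the line of equal values and 8 names. Every point is below 0 on both axes, with medians of -2.08 and -1.96.

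For reading, the members were sorted by their known roles into 10 groups, after their values had been seen, and 9 of these are described. Members named below from these groups alone, because of their role, were therefore also chosen after their values were seen. Of all 123 members, 95.9% were called lower at 10 h, against 39.5% of expressed genes. The counts that fell in each group are to be read beside the share of all members, and they do not set a group apart. The largest groups were receptors, growth signalling and scaffolds (21 members), cell cycle, DNA replication and repair (17) and transcription factors and coregulators (16).

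**Figure D4:**
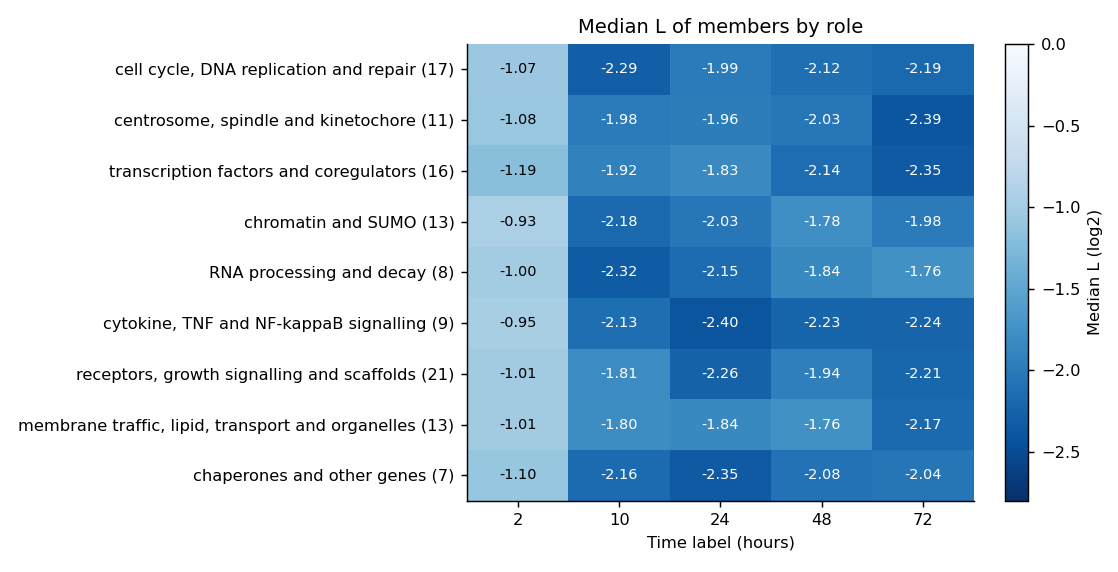
Median L (log2, colour and printed value) of the members in each of 9 role groups (rows, number of members in parentheses) at each time label in hours (columns). The medians lie between -1.19 and -0.93 at 2 h, and at 72 h between -2.39 for centrosome, spindle and kinetochore genes and -1.76 for RNA processing genes.

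Among cell surface receptors and growth signalling genes, EPHB3 had the lowest L of all members at 2 h. It stood at 62.5 and 46.1 CPM in the DMSO libraries of 2 h and at 8.19 and 5.45 CPM in those of toyocamycin, an L of -2.82. At 10 h the DMSO library had 34.4 CPM and the toyocamycin libraries 5.10 and 3.32, a log2 fold change of -2.49 ± 0.32 (SE; edgeR adjusted p = 2.39e-05). The single DMSO libraries of 24 and 48 h had 36.5 and 24.3 CPM against 2.40 and 3.06 on toyocamycin. At 72 h it read 31.8, 32.7 and 25.2 CPM in DMSO and 2.00, 2.02 and 2.23 CPM on toyocamycin. The low level of 2 h was thus present at every time, and no toyocamycin library reached the lowest DMSO one. EFNA4, an ephrin ligand held in the membrane, came from 16.7 and 10.2 CPM in DMSO at 2 h to 7.16 and 6.34 CPM on toyocamycin. At 10 h it had 12 and 1 counts in the toyocamycin libraries and 244 in the DMSO library, 25.8-fold lower (95% exact interval 14.8 to 49.2, counting error only). At 72 h there were 4, 2 and 3 counts on toyocamycin and 1036 over the 3 DMSO libraries, 85.4-fold lower (44.8 to 187).

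TANC1, a scaffold protein, was the most abundant member, with 449 and 413 CPM in DMSO and 254 and 226.2 CPM on toyocamycin at 2 h. Its toyocamycin libraries had 102 and 104 CPM at 10 h, 115 and then 76.6 CPM in the single libraries of 24 and 48 h, and 24.1, 21.3 and 23.5 CPM at 72 h, when DMSO had 636, 620 and 683 CPM. This gave the lowest L of any member at 72 h, -4.75, after one of the weaker values at 2 h (-0.84), and TANC1 fell by 1.42 ± 0.21 on the log2 scale at 10 h (edgeR adjusted p = 7.55e-05). RGS3, which turns off G protein signalling, had an L of -1.002 at 2 h and -3.87 at 72 h. RASA2, a brake on Ras, had -1.39 and -3.10, and MAPK7, the kinase ERK5, -1.05 and -1.57. RICTOR, a core subunit of the kinase complex mTORC2, had -0.82 and -2.68. In all, 19 of these 21 genes fell at 10 h, where PGF, a growth factor, and N4BP3 were not called.

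In the cell cycle and replication group, 16 of 17 genes fell at 10 h, with a median L of -1.07 at 2 h and -2.29 at 10 h. CDC6, which loads the MCM helicase onto origins, was at 131 and 142 CPM in DMSO and at 59.4 and 69.8 CPM on toyocamycin at 2 h. By 10 h it stood at 108 CPM in DMSO and 19.4 and 23.2 CPM on toyocamycin (log2 fold change -1.89 ± 0.23, edgeR adjusted p = 1.76e-05), and on toyocamycin it stayed between 9.76 and 14.9 CPM from 24 to 72 h. The DMSO libraries of those times lay between 84.4 and 130 CPM, so the treatments did not overlap. CCNF, the F-box subunit of a ubiquitin ligase of the cell cycle, read 58.8 and 49.0 CPM in DMSO and 19.3 and 19.0 CPM on toyocamycin at 2 h, and 89.8 against 7.45 and 9.73 CPM at 10 h. Its 10 h fold change of -2.94 ± 0.24 (edgeR adjusted p = 8.61e-07) was among the 5 lowest of the members.

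CDC25A, the phosphatase that activates cyclin-dependent kinases, had a different course. It read 72.3 and 78.0 CPM in DMSO and 27.8 and 24.0 CPM on toyocamycin at 2 h, and thereafter stayed between 12.1 and 23.2 CPM on toyocamycin, with L of -1.50, -1.58 and -2.04 for 2, 10 and 72 h. CCNA2, the cyclin of S phase and G2, started nearer the limit (L -0.82 at 2 h) and had 127 CPM in DMSO against 19.6 and 12.7 CPM on toyocamycin at 10 h (log2 fold change -2.45 ± 0.28, edgeR adjusted p = 1.07e-05). MCM10, which acts when the replication helicase is activated, likewise had an L of -0.82 at 2 h and 71.1 CPM in DMSO against 7.03 and 11.8 CPM at 10 h (-2.50 ± 0.26, edgeR adjusted p = 4.02e-06). CCNE2, a G1/S cyclin, had an L of -0.94 and a 10 h fold change of -1.18 (adjusted p = 0.0638). E2F8, a repressing E2F factor, had L of -1.30, -2.46 and -3.29 at 2, 10 and 72 h. TICRR, which fires origins, had -1.39, -2.13 and -3.07, and NPAT, the coactivator of histone genes, -1.52, -2.47 and -1.94. The repair genes BARD1, the partner of BRCA1, BLM, a helicase, and MSH6, a mismatch sensor, had L of -1.39, -0.82 and -1.02 at 2 h and fell at 10 h, with log2 fold changes of -1.22, -2.11 and -2.27. SERTAD3 was the 1 gene of the group that was not called.

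**Figure D5:**
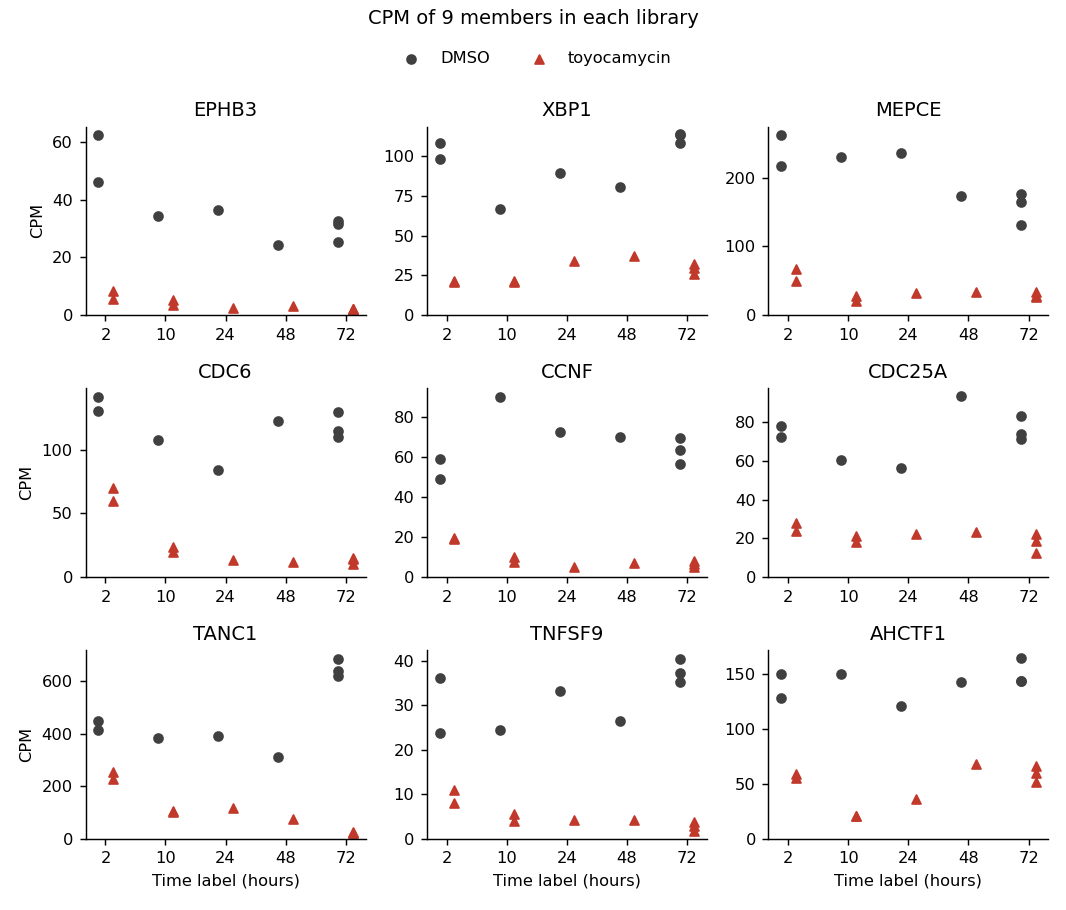
CPM of 9 members (1 panel each, y axis from 0) in every library by time label in hours, with DMSO as grey circles and toyocamycin as red triangles. Every toyocamycin value lies below the DMSO values of its time, as the rule favours at every time but 10 h, and AHCTF1 on toyocamycin goes from 20.4 and 20.7 CPM at 10 h to 67.9 CPM at 48 h.

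All 11 genes of the centrosome, spindle and kinetochore fell at 10 h. AHCTF1, which seeds nuclear pores on chromatin, read 129 and 151 CPM in DMSO and 59.1 and 55.6 CPM on toyocamycin at 2 h. At 10 h it had 150 CPM against 20.4 and 20.7 CPM (log2 fold change -2.40 ± 0.22, edgeR adjusted p = 1.71e-06), at 24 and 48 h 36.0 and 67.9 CPM on toyocamycin, and at 72 h 59.7, 52.0 and 66.5 CPM. Its toyocamycin level was therefore lowest at 10 h, and its L of -1.06 at 48 h was close to the limit. CENPC, a base of the kinetochore, had L of -1.23, -2.64 and -1.77 at 2, 10 and 72 h. STIL, needed to duplicate centrioles, had -1.24, -1.94 and -2.52, and CEP85, a centrosome protein, -1.35, -1.88 and -3.28. HYLS1, a centriole protein, was down to 8, 3 and 12 counts on toyocamycin at 72 h.

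All 16 transcription factors and coregulators were called lower at 10 h. MEPCE had the highest level among them, at 263 and 217 CPM in DMSO and 67.3 and 49.1 CPM on toyocamycin at 2 h. The toyocamycin libraries then read 27.0 and 20.7 CPM at 10 h, 31.8 and 33.2 CPM in the single libraries of 24 and 48 h, and 26.3, 27.9 and 33.9 CPM at 72 h, while DMSO lay between 131 and 237 CPM from 10 to 72 h. The 10 h fold change was -2.78 ± 0.29 (edgeR adjusted p = 4.00e-06). XBP1 was at 108 and 98.4 CPM in DMSO and 21.2 and 20.6 CPM on toyocamycin at 2 h, an L of -2.25. It was at 66.7 CPM in DMSO and 20.7 and 21.2 CPM on toyocamycin at 10 h (-1.20 ± 0.20, edgeR adjusted p = 3.01e-04), then on toyocamycin at 34.0 CPM (24 h), at 37.2 CPM (48 h) and, in the libraries of 72 h, at 32.2, 25.9 and 29.7 CPM. XBP1 was thus furthest below DMSO at the first time, unlike most members, and its L was -1.63, -1.37, -1.09 and -1.90 at the later ones. IRF1, the interferon regulatory factor, had L of -1.85, -1.59, -1.41, -1.27 and -1.21 at the 5 times. These were the 2 members whose L was lowest at 2 h among the times of the rule.

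In contrast, GLI2, an effector of Hedgehog signalling, had L of -1.24 at 2 h and -3.79 at 72 h. FOXJ2, a forkhead factor, had -1.36 and -3.24, POU2F1, the octamer factor OCT1, had -0.86 and -2.99, and TFEB, which drives lysosome genes, had -1.09 and -2.47. AFF1, a scaffold of the super elongation complex, had -0.86 at 2 h and fell by 1.87 on the log2 scale at 10 h. TAF5, a subunit of the general factor TFIID, had -1.33 and fell by 2.17. The weakest call of this group was CBFA2T2, a corepressor (-0.60 ± 0.23, edgeR adjusted p = 0.0533), which was lost without replicate 2 of toyocamycin (-0.44, adjusted p = 0.165).

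Each of the 13 chromatin and SUMO genes fell at 10 h, by 1.05 (HDAC4, a histone deacetylase) to 2.57 (PIAS4, a SUMO ligase) on the log2 scale. KDM3A, which demethylates histone H3 at lysine 9, read 49.4 and 57.2 CPM in DMSO and 24.6 and 23.7 CPM on toyocamycin at 2 h. At 72 h its DMSO libraries had 73.4, 89.2 and 105 CPM and its toyocamycin libraries 9.05, 7.07 and 11.9 CPM. The Polycomb proteins CBX2 and EED had L of -0.95 and -0.92 at 2 h and of -2.30 and -1.96 at 72 h. KMT5C, a methyltransferase of histone H4, had -0.97 and -1.58, and the remodelers CHD7 and ARID2 had -0.995 and -0.84 at 2 h and -1.39 and -2.62 at 72 h. Of the 8 RNA processing genes, all fell at 10 h, and their median L went from -2.32 at 10 h to -1.76 at 72 h. TOB2, which links deadenylases to mRNAs, was at 188 and 205 CPM in DMSO and 71.0 and 73.6 CPM on toyocamycin at 2 h, and its toyocamycin level was 33.4 CPM at 24 h and 57.1, 64.6 and 62.8 CPM at 72 h. IREB2, the iron-responsive regulator of mRNAs, had L of -1.08, -2.99 and -1.30 at 2, 10 and 72 h, and the splicing protein MFAP1 -0.91, -2.46 and -1.85.

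Among 9 genes of cytokine, TNF and NF-kappaB signalling, 8 fell at 10 h. TNFSF9, the ligand of the T cell receptor 4-1BB, was at 36.0 and 23.7 CPM in DMSO and 10.9 and 7.99 CPM on toyocamycin at 2 h. It had 24.4 CPM against 5.59 and 4.01 CPM at 10 h (log2 fold change -1.82 ± 0.35, edgeR adjusted p = 8.51e-04) and 37.2, 40.4 and 35.3 CPM against 1.78, 3.70 and 2.89 CPM at 72 h. IL22RA1, an epithelial receptor of interleukin 22, had toyocamycin levels of 9.37 and 9.76 CPM at 2 h and 0.52, 0.67 and 0.59 CPM at 72 h, when DMSO had 19.9, 21.8 and 19.2 CPM. IL17RA, the receptor of interleukin 17, had L of -0.82 at 2 h and -3.30 at 72 h. TRAFD1 had the opposite course: from 40.1 and 37.2 CPM in DMSO and 19.96 and 23.3 CPM on toyocamycin at 2 h, it stood at 46.1 CPM against 4.20 and 3.32 CPM at 10 h (-3.10 ± 0.25, edgeR adjusted p = 8.08e-07), and on toyocamycin it was back at 14.9, 11.4 and 14.8 CPM at 72 h. NFKBIE, an inhibitor of NF-kappaB, had L of -1.10 at 2 h and -1.24 at 72 h. RELT, a receptor of the TNF family, was the member furthest from a call at 10 h, with 10.7 CPM in DMSO and 6.01 and 5.95 CPM on toyocamycin, but it was called lower with batch as a term (-0.83, edgeR adjusted p = 0.0460) and with mitochondrial scaling (-1.48, adjusted p = 0.0701).

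PLEKHO2, a protein with a pleckstrin homology domain, had toyocamycin levels of 5.49 and 5.77 CPM at 2 h and 0.30, 0.34 and 0.39 CPM at 72 h, against 11.04, 11.96 and 8.96 CPM in DMSO. Of the 13 genes of membrane traffic, lipids and organelles, 12 fell at 10 h. PHETA2, an adaptor of endosomal sorting, read 35.8, 33.2 and 28.0 CPM in DMSO and 1.26, 0.88 and 1.77 CPM on toyocamycin at 72 h, and it fell by 3.09 on the log2 scale at 10 h.

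DNAJB1, a heat shock cochaperone, was at 203 and 210 CPM in DMSO and 83.3 and 85.2 CPM on toyocamycin at 2 h, and its toyocamycin level went through 70.6 and 60.4 CPM at 10 h to 12.2, 12.2 and 12.5 CPM at 72 h, when DMSO had 187, 173 and 169 CPM. All 7 members of the remaining group fell at 10 h, C17orf80 by 3.30 and RUNDC1 by 0.93 on the log2 scale. Where the counting used no strand information, which the sources used here do not state, reads of a gene on the other strand could be included: 23 members, CCNA2, CCNE2, MSH6, MEPCE, DNAJB1 and C17orf80 among them, share exon bases with such a gene.

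Seen from the pathways, the members were a small part of each list. Of 72 genes of the cell cycle and DNA replication, 71 were expressed and 6 were members (MCM10, CDC6, CCNA2, CCNF, CDC25A and CCNE2), 8.45% of the expressed, where all expressed genes gave 1.35%. At 10 h, 39 of the 72 were called lower and 2 higher, with a median log2 fold change of -0.76. Over all genes tested, 24.4% were called lower and 20.4% higher, and over expressed genes 39.5% and 21.6%. In the lists that follow, members were 4.69%, 4.27%, 6.33%, 2.78% and 6.67% of the expressed genes, in the order given. DNA damage response and repair had 3 members among 64 expressed genes (MSH6, BARD1 and BLM), with 47 of 72 lower and 3 higher at 10 h. The histone and DNA modifying enzymes had 5 members among 117 expressed (HDAC4, BCORL1, KDM3A, KMT5C and CBX2), with 63 of 127 lower and 6 higher. Zinc finger proteins without a ZNF symbol had 5 members among 79 (ZC3H3, GLI2, ZMYM2, PRDM10 and ZBTB41), with 54 of 151 lower and 23 higher. RNA polymerase II elongation and 3′ end factors had 2 among 72 (MEPCE and AFF1), with 43 of 81 lower and 8 higher. Receptor tyrosine kinases and ephrins had 2 among 30 (EPHB3 and EFNA4), with 14 of 53 lower and 13 higher, near the shares of all genes tested. The lists named in this paragraph all lie above 1.35%, and they do not stand for the 30 lists. Among the others, the SOX, FOX, GATA and T-box factors were at 8%. E3 ubiquitin ligases and adaptors were at 0.909%, and solute carriers and ATP-binding cassette transporters at 0.602%. Some lists held no member. Of the 123 members, 40 stood on at least 1 of the 30 lists and 83 on none.

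A few members share a start region with a gene read in the other direction. Partners were counted where the starts lay within 1000 bp, facing away from each other, or overlapped by at most 200 bp. By this limit 6 members had such a partner, and 4 of the partners were expressed. AKR7A2, METTL15, MYO9B and ATM, the partners of SLC66A1, KIF18A, HAUS8 and NPAT, had L of 0.13, -0.02, 0.14 and -0.03 at 2 h, where the members, by the rule, had -0.85, -0.88, -0.82 and -1.52. The partners were not all level later: at 24, 48 and 72 h, L was -0.80, -1.94 and -3.74 for AKR7A2, -1.68, -1.01 and -0.72 for METTL15, -3.55, -3.36 and -3.21 for MYO9B, and -2.29, -0.64 and -0.43 for ATM. ATM, the DNA damage kinase, read 12.6 and 18.5 CPM in DMSO and 15.2 and 15.2 CPM on toyocamycin at 2 h, and NPAT, whose start lies 406 bp away, read 18.8 and 24.7 CPM against 7.06 and 6.78 CPM. At 10 h, the partners had log2 fold changes of 0.93 (AKR7A2, adjusted p = 0.0131), -0.40 (METTL15, 0.274), -1.12 (MYO9B, 0.00189) and -0.90 (ATM, 0.0509) (edgeR, quasi-likelihood test, p adjusted after Benjamini and Hochberg).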

How the data were processed

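The authors aligned paired-end polyA reads to GRCh38 with STAR 2.7.5a, counted reads per gene and deposited these counts without normalization as whole numbers for 19141 genes, of which 19080 were matched to a symbol. The strand setting of the counting is not given in the sources used here. A table of the authors' edgeR fold changes and p-values was also deposited and was not used. In the count table, 1 column named as a DMSO library of 10 h matched no sample and was not used. Treatment, time, replicate and batch came from the labels. Gene positions came from GENCODE release 44 of the same build.

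CPM was a count divided by the library's total, times 1000000. The 10 h contrast was tested with edgeR 4.0.16 in R 4.3.3 (filterByExpr, TMM, quasi-likelihood test in its earlier form, 1 term per treatment and time, 17 libraries, 7 residual degrees of freedom), after the study's methods, and calls used an adjusted p under 0.1. The SE of a fold change was derived as its absolute value divided by the square root of the test's F statistic. It is approximate, as the fold change also depends on edgeR's prior count. The script was tested on simulated counts. Alternatives were DESeq2 1.42.0, other scalings, other library sets, a batch term and a replicate block. Tables were made with Python 3.11.15, pandas 2.3.3 and numpy 2.4.6. The p-values measure the spread between libraries, and nothing beyond the labels' word on biological triplicates says how separate the cultures were. Intervals hold counting error alone and leave out the spread between libraries. A read that carries no molecular identifier need not be a separate molecule, so even the counting error may be larger than they show.

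The members and the gene lists were chosen with earlier results of these data known. Genes named in the text were the 8 with the highest DMSO level at 2 h, the lowest L at 2 h and the lowest mean L at the later times, the 5 at each end of the 10 h fold changes, members on the gene lists, and the 3 on each side of the 2 h limit. Any other gene named was chosen after its values were seen. Some genes and 1 role group are not reported here.

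Replicate numbers were checked for pairing: the deviations of same-numbered libraries from their group means correlated at 0.307 at 2 h, where the number is also the batch, and between -0.105 and 0.0427 at 72 h, so the numbers were not taken to pair the samples.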

Additional observations from a re-analysis of the deposited data

How the results depend on the processing

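No member was called higher at 10 h in any of the 13 alternatives, and 97 of the 123 were called lower in each. The median log2 fold change of the members was -1.65 and became -1.45 with DESeq2's size factors, -1.45 with the DESeq2 Wald test, -2.13 with library size alone and -2.78 with mitochondrial scaling. Leaving out 1 toyocamycin library of 10 h gave -1.85 to -1.61. With the replicate block, 120 members were called lower and the median was -1.74, and a fit of the 10 h libraries alone called 97. The groups of 10 h share 1 replicate number.

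The rule chose 62 genes with a pseudocount of 5 CPM, 37 with TMM, 247 with mitochondrial scaling and 68 with a 2 h limit of -1. Without replicate 1 or 2 of 2 h it chose 149 or 128 genes, of which 106 or 103 were among the 123. The 10 h result rests on 1 DMSO library, and 5 member values rest on 3 or fewer counts. Calls of single genes were followed through the alternatives for 27 members, and some of these are not reported here. Among those reported, the calls of CBFA2T2 and ANKRD50 were lost in 5 and 4 of the 13 alternatives. Those of IRF1, RUNDC1 and PLEKHO2 were lost in 1 each. RELT was called in 2, with a batch term and with mitochondrial scaling, and DENND1B in 3. CCNE2 was not among the 27, and its edgeR adjusted p of 0.0638 lies above the stricter limit of 0.05.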

Other observations

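Among all 9119 expressed genes, 7.14% passed the 2 h limit and 1.35% were members. Of 40 expressed immediate early genes, which answer growth signals without new protein synthesis, 12 passed the 2 h limit and 0 were members, and of 30 expressed p53 targets 9 passed and 0 were members. At the share of all expressed genes, lists of 40 and 30 would hold under 1 member. Of all 651 genes that passed the 2 h limit, 19.8% passed the later limits. The counts of 12 and 9 are small, and the difference from that share was not tested. The expressed immediate early genes and p53 targets had a median L of 2.29 and 2.95 at 72 h. At 10 h, where edgeR's quasi-likelihood test called 20.4% of all genes higher and 24.4% lower, it called 35 of 51 immediate early genes higher and 3 lower, and 19 of 34 p53 targets higher and 5 lower. These counts held for TMM: with mitochondrial scaling they were 14 higher and 4 lower, and 4 higher and 8 lower. Without replicate 1 of toyocamycin, 24 immediate early genes were higher and 9 lower, and 12 p53 targets were higher and 6 lower. Of 77 expressed cytosolic ribosomal protein genes, 0 passed the 2 h limit, and 77 of 83 were called higher at 10 h and 1 lower, but with mitochondrial scaling 0 were higher.

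Keratins, claudins, cadherins, integrins and junction proteins had a median L of 0.07 at 2 h and -3.22 at 72 h over 55 expressed genes, with 0 members. All expressed genes had medians of -0.02 and -1.25 at these times. With 1.35% of expressed genes being members, a count of 0 among 55 says little.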
